A study of Mus musculus with 12 samples.

Results

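The genes described here are 32 peroxisomal genes, the enzymes of peroxisomal lipid oxidation and the proteins that build the organelle. They were chosen by name from the known functions of peroxisomes, but with earlier results of these data known. They were found on the array through the RefSeq accession of each probe and represented by the brightest probe per gene. All 32 were found, and all were well above background on each of the 12 arrays, among 31453 genes or unnamed probes tested, of which 15954 carry a gene name. One-colour Agilent arrays were used on white fat from around the gonads, and the mice, all males on C57BL/6N, had 1 of 4 genotypes. These were WT (wild type), Gadd45a-KO (lacking Gadd45a), Ing1-KO (lacking Ing1) and DKO (lacking both), all bred from crosses between the 2 mutant lines. Each genotype has 3 arrays, each array holds RNA pooled from 3 males aged 59 to 67 days, and 9 animals stand behind each genotype. The tissue was profiled whole, untreated, so each value is a sum over adipocytes and the other cells of the fat pad. Gadd45a encodes a stress-inducible adaptor protein linked to DNA repair and active DNA demethylation, and Ing1 encodes a PHD finger protein that reads methylated histone H3 at promoters and takes part in a histone deacetylase complex.

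Peroxisomes shorten fatty acids that mitochondria handle poorly, such as very long and branched chains, and they carry out the first steps of ether lipid synthesis. Their oxidases make hydrogen peroxide, which catalase destroys in the same compartment. The organelle imports its enzymes fully folded: the receptors Pex5 and Pex7 bind cargo in the cytosol, dock on Pex13 and Pex14, and are then pulled out of the membrane by the ubiquitin ligases Pex2 and Pex10 and the ATPase Pex6, which Pex26 anchors. In fat, peroxisomes multiply as adipocytes differentiate, and many of their enzymes are targets of the PPAR nuclear receptors.

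Peroxisomal transcripts were higher in DKO than in Gadd45a-KO and, averaged over both Gadd45a backgrounds, with Ing1 loss. Against WT, 0 members passed in Ing1-KO (0% of features rose) and 0 in DKO (0.0827% of features rose). In DKO against Gadd45a-KO, 21 of the 32 genes rose and 0 fell (limma, adjusted p under 0.05 over all 31453 features), against 6.49% of all features that rose and 8.47% that fell. The median log2 fold change of the 32 was 0.62, against -0.03 over all features, and the largest fold change was that of the thiolase gene Acaa1b at 2.06-fold. An unadjusted p under 0.05 with a higher value was reached by 26 members, against 14.3% of features. Averaged over both Gadd45a backgrounds, 20 genes rose with Ing1 loss and 0 fell, against 6.93% of all features that rose and 9.09% that fell, with a median of 0.43 against -0.04. The genes with the largest average effects serve different steps: Ehhadh and Acaa1b are oxidation enzymes, Pex3 and Pex19 insert membrane proteins, and Pxmp2 is a membrane channel.

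The promoters of the members with the largest average effects of Ing1 loss are shown first because the proteins deleted here are linked to promoter chromatin and DNA demethylation. Whether either protein acts on these promoters was not tested. Each line gives the 250 bases before the annotated start, on the strand of the gene, from RefSeq on GRCm38.p6, with CG dinucleotides in capitals since these are the sites of DNA methylation. Ehhadh lies at chr16:21787835-21788084, Acaa1b at chr9:119157094-119157343 and Pex3 at chr10:13553143-13553392, all on the minus strand.
Ehhadh: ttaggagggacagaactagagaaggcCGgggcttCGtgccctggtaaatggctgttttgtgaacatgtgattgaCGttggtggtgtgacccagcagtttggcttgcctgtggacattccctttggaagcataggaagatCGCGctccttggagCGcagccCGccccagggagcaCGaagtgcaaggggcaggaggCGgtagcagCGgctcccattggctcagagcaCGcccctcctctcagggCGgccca
Acaa1b: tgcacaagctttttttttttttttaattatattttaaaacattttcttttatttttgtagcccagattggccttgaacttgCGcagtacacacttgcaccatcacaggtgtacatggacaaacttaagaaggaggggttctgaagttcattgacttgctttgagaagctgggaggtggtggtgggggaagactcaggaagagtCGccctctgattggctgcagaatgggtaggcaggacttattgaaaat
Pex3: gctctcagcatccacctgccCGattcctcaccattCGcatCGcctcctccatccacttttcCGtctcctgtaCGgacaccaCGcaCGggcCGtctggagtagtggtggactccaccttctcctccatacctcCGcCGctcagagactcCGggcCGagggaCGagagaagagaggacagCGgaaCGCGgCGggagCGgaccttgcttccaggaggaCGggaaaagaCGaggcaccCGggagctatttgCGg

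The 3 sequences differ in CpG density. The Acaa1b window holds 2 CG dinucleotides, with an observed over expected ratio of 0.195, the lowest of the 26 members that have a window in the table. The Ehhadh window holds 12 with a ratio of 0.537, and the Pex3 window holds 22 with a ratio of 0.888. The highest ratio of a member was 1.1, for Pex7. Where a gene had several windows, the window with the highest ratio was used, for members and all other genes alike. All 3 genes rose in DKO against Gadd45a-KO. Over the 26 members the median ratio was 0.727, against 0.697 over 12646 tested genes, and 15 members (57.7%) had a ratio of at least 0.6, against 61.0% of all these genes. In DKO against Gadd45a-KO, the 15 CpG-rich members had a median log2 fold change of 0.53 and 8 of them rose. The 11 CpG-poor members had a median of 0.64 and 7 of them rose. Of all features 6.49% rose, and the shares among all CpG-rich or CpG-poor genes were not computed.

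The direct repeat that PPAR and RXR proteins bind was searched for in every window of each gene, where a match in any window counted. Written as AGGTCANAGGTCA on either strand, it matched 0 of 26 members and 0.0554% of all genes with a window. The looser form AGGNCANAGGNCA also matched 0 members and 0.387% of genes. The lone element AGGTCA, which lies within the longer motif, was found in 2 members, Cat and Scp2, and in 13.9% of genes. These counts say only which letters stand in these windows.

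The 12 arrays differed in brightness before normalization, with a median processed signal between 39.3 and 68.8 intensity units. Between 58.2% and 68.1% of 59305 spots were well above background, and WT replicate 2 was the lowest in both. The array number limits the precision, with 8 residual degrees of freedom. All 12 white adipocyte markers were above background on every array, as the tissue label says. The Ing1 probe had a normalized log2 signal between 12.37 and 12.78 on the 6 arrays labelled as having Ing1 and between 9.13 and 9.60 on the 6 labelled as lacking it. The Gadd45a probe lay between 9.06 and 9.80 on the arrays labelled as having Gadd45a and higher, between 10.05 and 10.62, on those labelled as lacking it. These ranges do not overlap. The position of the probe relative to the deleted part is not known here, so it does not show which arrays lack Gadd45a. Each statement on Gadd45a loss therefore rests on the label alone. Skeletal muscle transcripts were high on replicate 1 of Ing1-KO, DKO and Gadd45a-KO, where the mean of 14 markers lay 3.40, 2.32 and 1.12 log2 units above the mean of the 12 arrays.

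**Figure D1:**
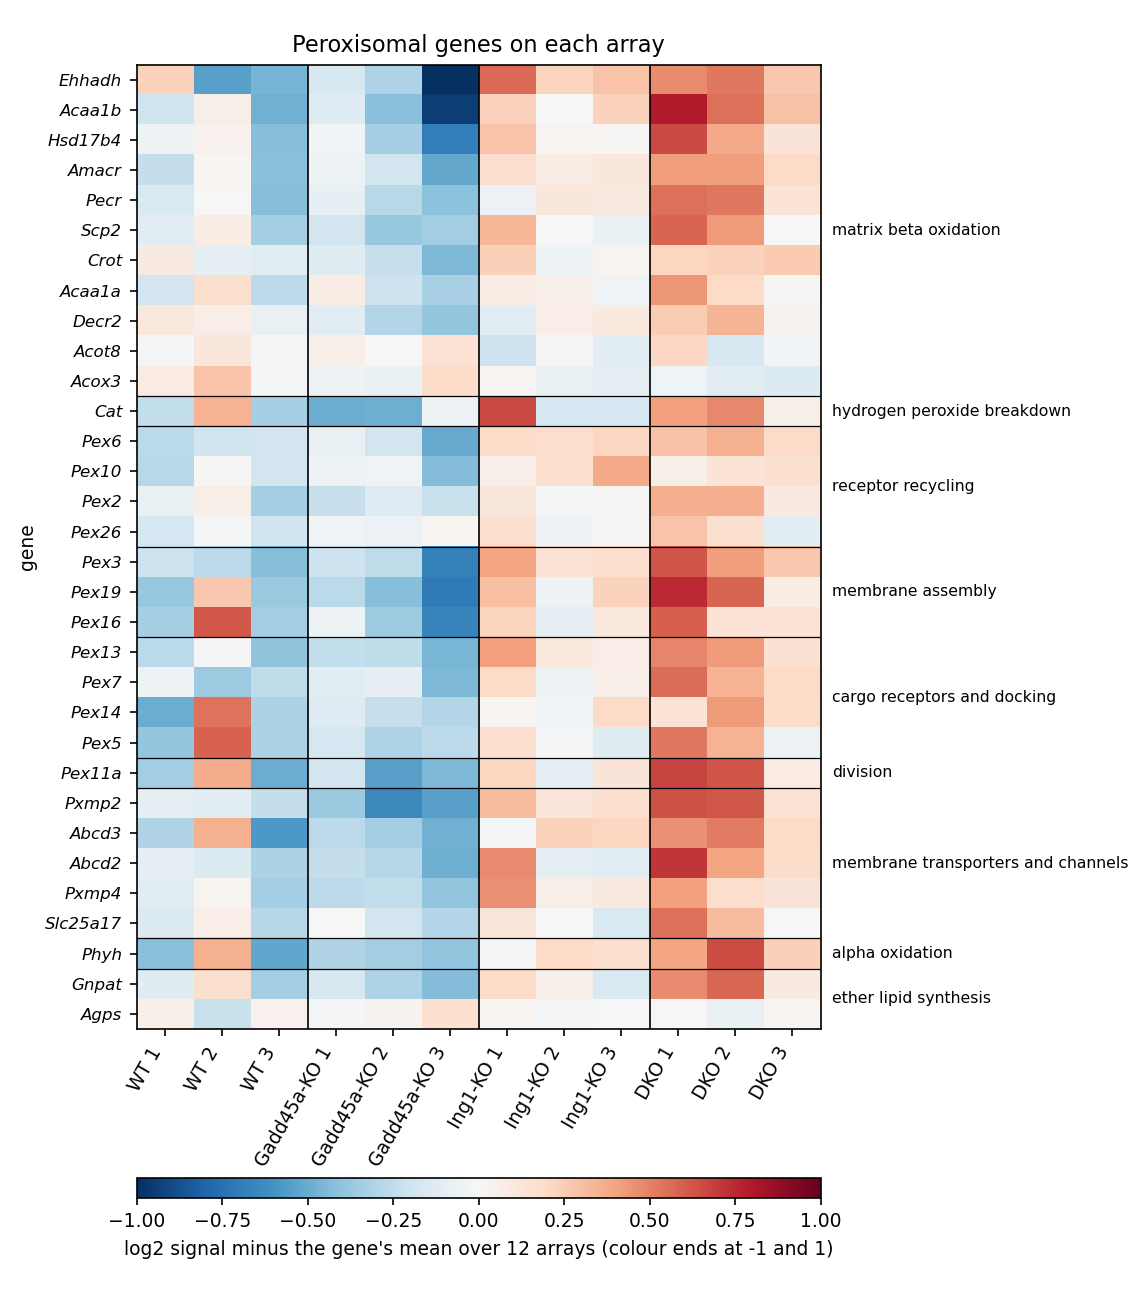
Normalized log2 signal of the 32 peroxisomal genes on each of the 12 arrays (columns, by genotype and replicate), minus the mean of the gene over the 12 arrays, with genes (rows) grouped by role. Most rows are blue on the Gadd45a-KO arrays and red on the DKO arrays; Acox3, Acot8 and Agps show little colour, and WT replicate 2 is redder than the other WT arrays for Pex16, Pex5 and Pex14.

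Against WT, the members' medians were smaller than in DKO against Gadd45a-KO. In Gadd45a-KO against WT, 0 members passed (0% of all features passed), 28 of 32 had a negative value and the median was -0.15, against -0.00 over all features; 2 members had a lower value at an unadjusted p under 0.05, against 0.808% of all features. In Ing1-KO against WT, 0 members passed (0% of features passed as higher), 29 of 32 were positive and the median was 0.24, against -0.04. Of these, 8 had an unadjusted p under 0.05 and a higher value, against 3.75% of all features. In DKO against WT, 0 members passed (0.0827% of features rose), although 30 of 32 were positive with a median of 0.47, against -0.04, and 21 had an unadjusted p under 0.05 and a higher value, against 10.2% of features. The smallest adjusted p of a member in that comparison was 0.0648, for Pex3. With the slide as a block, which the replicate number also marks, 7 members passed in DKO against WT: Abcd2, Amacr, Pecr, Pex13, Pex3, Pex7 and Pxmp2. In that fit 1.23% of all features rose. With the slide and the array column both in the fit, 0 members and 0.00318% of features rose.

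The groups can also be compared array by array. In DKO against Gadd45a-KO, the DKO arrays lay above all Gadd45a-KO arrays for 27 of 32 members, against 16.5% of features; the exceptions were Acaa1a, Pex26, Acox3, Agps and Acot8. In DKO against WT this held for 15 members, against 9.66% of features, and Acox3 alone lay lower without overlap, against 12.6% of features. In Gadd45a-KO against WT, 3 members lay lower without overlap, Pxmp2, Decr2 and Crot, against 2.6% of features. In Ing1-KO against WT, 7 members lay higher without overlap, against 7.24% of features. For these 7 genes, Pxmp2, Pex3, Pex6, Pex13, Amacr, Pxmp4 and Pex10, all 6 arrays lacking Ing1 lay above all 6 arrays that have it, against 3.38% of features.

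The effect of losing Ing1 was not shown to differ with Gadd45a. The interaction, the effect of Ing1 loss in mice without Gadd45a minus that in mice with it, had a median of 0.36 over the members, against 0.01 over all features, with 29 of 32 positive and 0 that passed (0% of features). At an unadjusted p under 0.05, 5 members had a positive interaction, against 2.31% of features: Pxmp2, Decr2, Gnpat, Crot and Acaa1b. The interaction of Pxmp2 was 0.64 with a 95% interval from 0.21 to 1.06 and an adjusted p of 0.728 by limma. In DKO against Ing1-KO the members' median was 0.22, against 0.01 over all features, 29 were positive and 0 passed (0.00318% of features rose). There, Pecr and Pex7 had a higher value at an unadjusted p under 0.05, against 1.43% of features, and 5 members lay higher without overlap, against 5.14% of features. The average effect of Gadd45a loss had a median of 0.04 and 0 members passed (0.00318% of features passed). These comparisons share arrays: the average effect of Ing1 loss contains both DKO and Gadd45a-KO, and each comparison against WT uses the same 3 WT arrays.

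Which arrays were present decided how many genes passed. Without Gadd45a-KO replicate 3, DKO replicate 1 or DKO replicate 2, the 21 members of DKO against Gadd45a-KO became 2 each time, Pex3 and Pxmp2, while the share of all features that rose went from 6.49% to 0.649%, 0.976% and 0.693%. Without Gadd45a-KO replicate 2 they became 5, which added Acaa1b, Pex13 and Pex6, with 1.39% of features. Leaving out any of the other 8 arrays left between 19 and 25 members, with 4.28% to 9.8% of features. Calls over all features therefore dropped in the same fits as those of the members. With only the 6 arrays compared in the fit, 3 members passed, Abcd3, Phyh and Pxmp2, and 0.754% of features rose. The size moved less, since the median over members lay between 0.51 and 0.71 over these 12 fits.

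The average effect of Ing1 loss was touched by more arrays. Its 20 members became 13 without WT replicate 1, 10 without WT replicate 3, 12 without Gadd45a-KO replicate 2 and 10 without Gadd45a-KO replicate 3. They became 11, 13 and 12 without Ing1-KO replicates 1, 2 and 3, and 12 without either DKO replicate 1 or DKO replicate 2. In these 9 fits between 2.97% and 4.49% of all features rose, in place of 6.93%. The genes called in all 12 of these fits were Acaa1b, Amacr, Ehhadh, Pecr, Pex13, Pex3, Pex6, Pex7, Pxmp2 and Pxmp4. In DKO against WT, the 0 members became 10 without WT replicate 2, 2 without Gadd45a-KO replicate 3 and 15 without DKO replicate 3. The share of all features that rose went from 0.0827% to 2.53%, 0.471% and 4.31% in these fits. When the 3 arrays with high skeletal muscle transcripts were left out, so that each mutant genotype kept 2 arrays, 0 members passed and 0% of features rose in any of these comparisons, while the medians were 0.60 in DKO against Gadd45a-KO and 0.38 for the average effect.

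Within each slide, which carries 1 array of every genotype, the median over members of DKO against Gadd45a-KO was 0.64, 0.66 and 0.57. The same median for DKO against WT was 0.66, 0.30 and 0.44, and for Ing1-KO against WT it was 0.37, -0.04 and 0.40. Slide 2, where the median of Ing1-KO against WT was just under 0, carries WT replicate 2. The column of the array on its slide went with the share of spots above background, which ran from 58.2% to 62.0% in column 1 and from 63.4% to 68.1% in column 2. Within the columns the median for DKO against Gadd45a-KO was 0.74 and 0.71, that for DKO against WT 0.28 and 0.84, and that for Ing1-KO against WT 0.14 and 0.40. The median for Gadd45a-KO against WT was 0.03, -0.32 and -0.06 within the slides, with 18, 5 and 12 of 32 members positive, and it changed sign between the columns, with -0.35 and 0.14. Without WT replicate 2 it was -0.01.

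**Figure D2:**
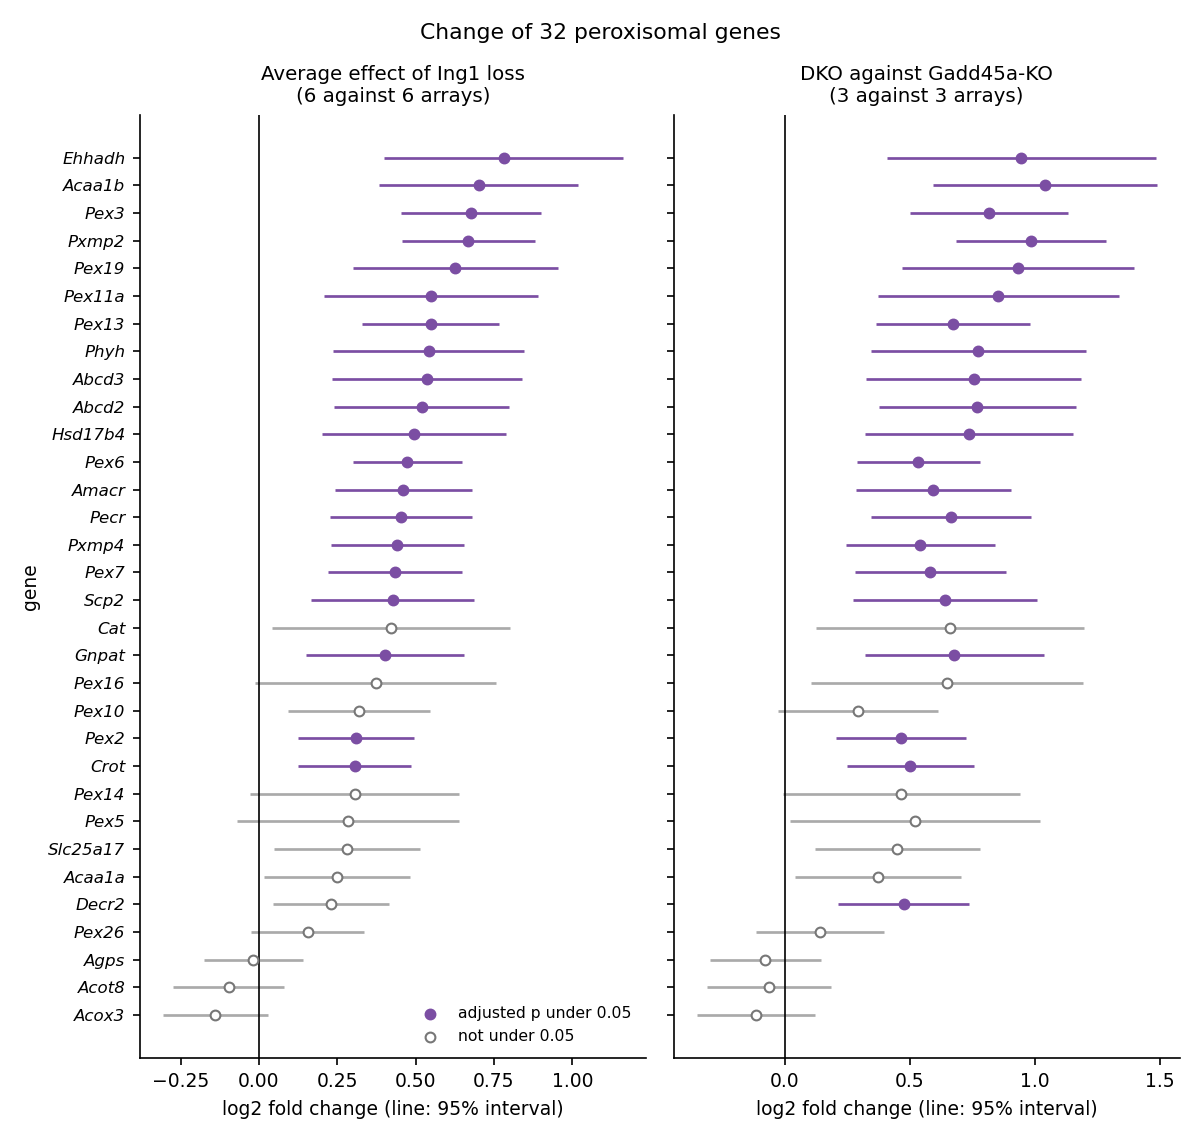
Log2 fold change of the 32 peroxisomal genes for the average effect of Ing1 loss (left, 6 against 6 arrays) and for DKO against Gadd45a-KO (right, 3 against 3 arrays), with 95% intervals as lines and filled points for adjusted p under 0.05. Ehhadh and Acaa1b lie at the top of both panels, and Agps, Acot8 and Acox3 lie at or below 0 in both.

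The matrix enzymes of beta oxidation and related acyl-CoA steps, Pecr among them, had a median log2 fold change of 0.59 in DKO against Gadd45a-KO over 11 genes. Ehhadh encodes the bifunctional enzyme for the hydration and dehydrogenation steps. Its normalized log2 signal was 11.54, 10.77 and 10.85 in WT, 11.15, 11.00 and 10.21 in Gadd45a-KO, 11.88, 11.53 and 11.59 in Ing1-KO, and 11.79, 11.84 and 11.58 in DKO. All DKO arrays lay above all WT and Gadd45a-KO arrays, with WT replicate 1 close below them. Ehhadh rose by 0.95 ± 0.25 on the log2 scale in DKO against Gadd45a-KO (SE, as for all fold changes given here; n = 3 arrays per group, limma adjusted p = 0.0302) and by 0.78 ± 0.17 on average with Ing1 loss (adjusted p = 0.0175). Hsd17b4, the second bifunctional enzyme, which also serves branched chains and bile acid precursors, had 14.15, 14.24 and 13.77 in WT, 14.17, 13.87 and 13.51 in Gadd45a-KO, 14.48, 14.22 and 14.21 in Ing1-KO, and 14.85, 14.57 and 14.33 in DKO. Its DKO arrays lay above WT and Gadd45a-KO but overlapped Ing1-KO. Hsd17b4 rose by 0.74 ± 0.19 in DKO against Gadd45a-KO (limma adjusted p = 0.0295).

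Acaa1b and Scp2 encode thiolases, which release acetyl-CoA or propionyl-CoA in the last step; Scp2 also gives rise to a sterol carrier protein. Acaa1b had a log2 signal of 11.88, 12.15 and 11.61 in WT, 11.96, 11.67 and 11.15 in Gadd45a-KO, 12.32, 12.09 and 12.32 in Ing1-KO, and 12.88, 12.64 and 12.38 in DKO. The 3 DKO arrays were the highest of the 12. Acaa1b rose by 1.04 ± 0.21 in DKO against Gadd45a-KO (limma adjusted p = 0.0145) and by 0.70 ± 0.15 on average (adjusted p = 0.0138). For Scp2 the values were 15.67, 15.85 and 15.43 in WT, 15.59, 15.39 and 15.43 in Gadd45a-KO, 16.10, 15.78 and 15.71 in Ing1-KO, and 16.36, 16.20 and 15.78 in DKO. DKO lay above Gadd45a-KO, while DKO replicate 3 lay below WT replicate 2. Scp2 rose by 0.64 ± 0.17 in DKO against Gadd45a-KO (limma adjusted p = 0.0311), and its second probe gave 0.63 ± 0.21. Acaa1a, the near-identical copy of Acaa1b, lay between 15.28 and 16.04 on all arrays and had 0.37 ± 0.15 (limma adjusted p = 0.112). Whether the probes of this pair detect both transcripts was not checked, since no probe sequence was used here, so the difference between the copies is uncertain.

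Amacr and Pecr, further enzymes that act on acyl-CoA, followed the same direction. Amacr, the racemase that turns branched acyl-CoA into the form the oxidases accept, had 11.13, 11.39 and 10.95 in WT, 11.32, 11.19 and 10.86 in Gadd45a-KO, 11.53, 11.45 and 11.49 in Ing1-KO, and 11.79, 11.79 and 11.57 in DKO. All 6 arrays lacking Ing1 lay above the 6 others, and DKO above Ing1-KO. Amacr rose by 0.59 ± 0.14 in DKO against Gadd45a-KO (limma adjusted p = 0.0232) and by 0.46 ± 0.10 on average (adjusted p = 0.0156). Pecr, a trans-2-enoyl-CoA reductase, had 11.54, 11.69 and 11.27 in WT, 11.61, 11.41 and 11.28 in Gadd45a-KO, 11.63, 11.80 and 11.78 in Ing1-KO, and 12.24, 12.22 and 11.83 in DKO. Its 3 DKO arrays were the highest of the 12, and it rose by 0.66 ± 0.15 in DKO against Gadd45a-KO (limma adjusted p = 0.0191).

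Decr2, the reductase for unsaturated chains, had 10.42, 10.37 and 10.24 in WT, 10.20, 10.02 and 9.92 in Gadd45a-KO, 10.20, 10.38 and 10.40 in Ing1-KO, and 10.57, 10.65 and 10.35 in DKO. Gadd45a-KO was the low group here, below all WT and DKO arrays, while Ing1-KO and WT overlapped. Decr2 rose by 0.47 ± 0.12 in DKO against Gadd45a-KO (limma adjusted p = 0.028), and its average effect of Ing1 loss, 0.23 ± 0.09, did not pass (adjusted p = 0.0844). Crot, which hands shortened chains to carnitine for export to mitochondria, had 11.35, 11.16 and 11.14 in WT, 11.13, 11.03 and 10.80 in Gadd45a-KO, 11.49, 11.20 and 11.28 in Ing1-KO, and 11.47, 11.49 and 11.51 in DKO. The DKO arrays were nearly equal and lay above WT, which in turn lay above Gadd45a-KO. Crot rose by 0.50 ± 0.12 in DKO against Gadd45a-KO (limma adjusted p = 0.0218).

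The exceptions in this group were an oxidase and a thioesterase. Acox3, an oxidase for branched chains, lay between 11.69 and 12.11 and had -0.12 in DKO against Gadd45a-KO, with a 95% interval from -0.35 to 0.12. Its DKO arrays lay below all WT arrays. Acot8, which frees fatty acids from acyl-CoA, lay between 10.55 and 10.97 and had -0.06 with an interval from -0.31 to 0.19. These upper bounds lie under the median of the 32 genes.

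Alpha oxidation and peroxide breakdown are each represented by 1 gene. Phyh, the hydroxylase that starts the removal of phytanic acid, had 13.42, 14.19 and 13.32 in WT, 13.53, 13.49 and 13.44 in Gadd45a-KO, 13.82, 14.04 and 14.00 in Ing1-KO, and 14.23, 14.49 and 14.07 in DKO. DKO lay above Gadd45a-KO and Ing1-KO, and WT replicate 2 stood apart from the other WT arrays, inside the DKO range. Phyh rose by 0.77 ± 0.20 in DKO against Gadd45a-KO (limma adjusted p = 0.0283). Cat, catalase, lay between 11.85 and 13.01 and had 0.66 ± 0.25 in DKO against Gadd45a-KO on its brightest probe, which did not pass (limma adjusted p = 0.0867). Its dimmer probe gave 1.24 ± 0.19 with an unadjusted p of 2.76e-05, so the answer for catalase depends on the probe.

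Of the enzymes of ether lipid synthesis, Gnpat changed and Agps did not pass. Gnpat, the acyltransferase that starts the pathway, had 14.12, 14.40 and 13.90 in WT, 14.08, 13.93 and 13.81 in Gadd45a-KO, 14.43, 14.29 and 14.09 in Ing1-KO, and 14.71, 14.81 and 14.33 in DKO. DKO lay above Gadd45a-KO and overlapped the other groups. Gnpat rose by 0.68 ± 0.16 in DKO against Gadd45a-KO (limma adjusted p = 0.0241). Agps, the next enzyme, which forms the ether bond, lay between 10.99 and 11.38 and had -0.08 with a 95% interval from -0.30 to 0.14.

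Membrane transporters and channels had a median of 0.76 in DKO against Gadd45a-KO over 5 genes. Pxmp2, a channel for small solutes, had 11.29, 11.26 and 11.14 in WT, 11.00, 10.73 and 10.84 in Gadd45a-KO, 11.70, 11.50 and 11.55 in Ing1-KO, and 12.01, 11.996 and 11.52 in DKO. The groups were ordered from Gadd45a-KO through WT to the arrays lacking Ing1, without overlap between these 3 sets. Pxmp2 rose by 0.99 ± 0.14 in DKO against Gadd45a-KO, with the smallest adjusted p among the members (limma, 0.007), and by 0.67 ± 0.10 on average (adjusted p = 0.00497). Pxmp4, a membrane protein of the same organelle, had 12.49, 12.63 and 12.27 in WT, 12.34, 12.35 and 12.21 in Gadd45a-KO, 13.06, 12.66 and 12.70 in Ing1-KO, and 13.02, 12.78 and 12.74 in DKO. All 6 arrays lacking Ing1 lay above the 6 others, narrowly for WT replicate 2. Pxmp4 rose by 0.54 ± 0.14 in DKO against Gadd45a-KO (limma adjusted p = 0.0277).

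The ABC transporters Abcd2 and Abcd3 carry long and branched acyl-CoA into the organelle. Abcd2 had 9.03, 8.98 and 8.81 in WT, 8.88, 8.83 and 8.63 in Gadd45a-KO, 9.59, 9.02 and 9.01 in Ing1-KO, and 9.84, 9.52 and 9.31 in DKO. DKO lay above WT and Gadd45a-KO, and Ing1-KO replicate 1 lay among the DKO arrays. Abcd2 rose by 0.77 ± 0.18 in DKO against Gadd45a-KO (limma adjusted p = 0.0223). For Abcd3 the values were 12.99, 13.64 and 12.71 in WT, 13.02, 12.93 and 12.80 in Gadd45a-KO, 13.27, 13.52 and 13.50 in Ing1-KO, and 13.74, 13.80 and 13.48 in DKO. The Gadd45a-KO arrays were below all DKO arrays, while WT replicate 2 was not. Abcd3 rose by 0.76 ± 0.20 in DKO against Gadd45a-KO (limma adjusted p = 0.0302). Slc25a17, a carrier for cofactors such as coenzyme A, lay between 12.06 and 12.91 and had 0.45 ± 0.15 in the same comparison (limma adjusted p = 0.0644).

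**Figure D3:**
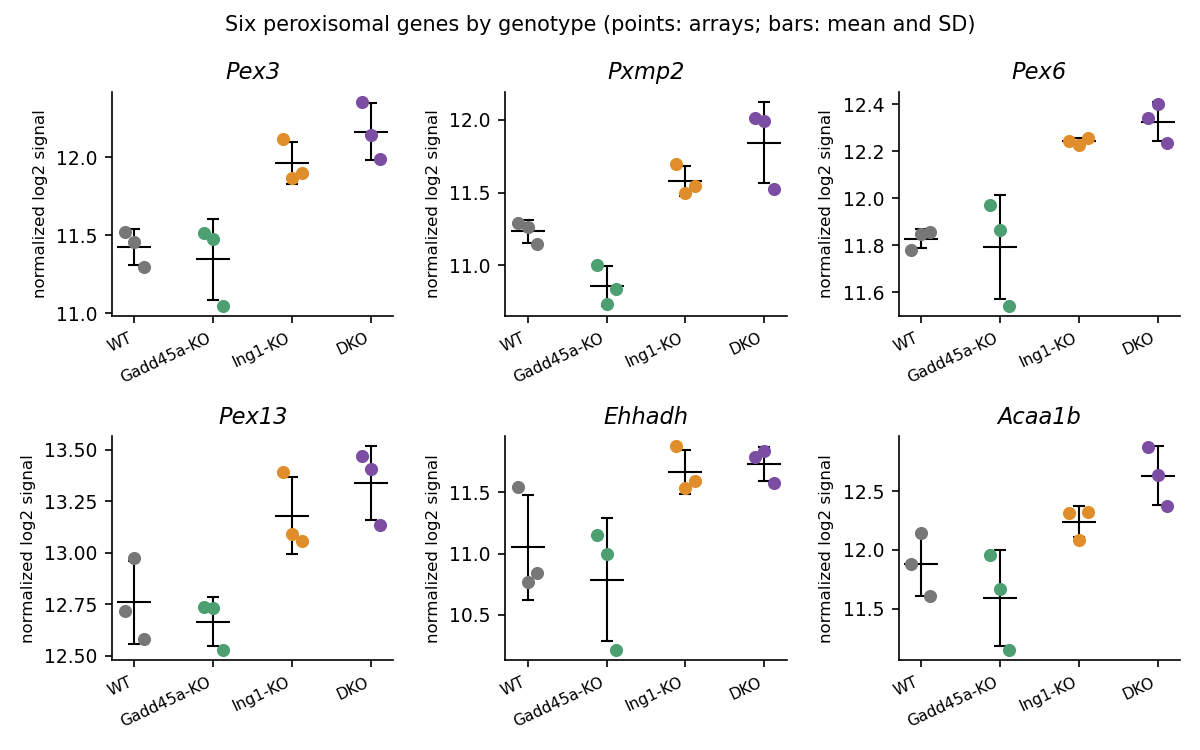
Normalized log2 signal of Pex3, Pxmp2, Pex6, Pex13, Ehhadh and Acaa1b by genotype, with 1 point per array and bars for the mean and SD of 3 arrays. For Pex3, Pxmp2, Pex6 and Pex13 every Ing1-KO and DKO point lies above every WT and Gadd45a-KO point; for Ehhadh and Acaa1b the Ing1-KO points reach into the WT range.

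The proteins that place new membrane proteins had a median of 0.82 in DKO against Gadd45a-KO over 3 genes. Pex3 is the membrane anchor on which the carrier Pex19 docks. Its log2 signal was 11.52, 11.46 and 11.30 in WT, 11.52, 11.47 and 11.05 in Gadd45a-KO, 12.12, 11.87 and 11.90 in Ing1-KO, and 12.35, 12.15 and 11.99 in DKO. Every array lacking Ing1 was above every array with it, and WT and Gadd45a-KO overlapped. Pex3 rose by 0.82 ± 0.14 in DKO against Gadd45a-KO (limma adjusted p = 0.0112) and by 0.68 ± 0.10 on average (adjusted p = 0.00566). In Ing1-KO against WT the value of Pex3 was 0.54 ± 0.14, with the smallest unadjusted p of the members there, 0.00304, and an adjusted p of 0.446. Pex19, the carrier, had 11.20, 11.85 and 11.21 in WT, 11.32, 11.16 and 10.87 in Gadd45a-KO, 11.88, 11.53 and 11.81 in Ing1-KO, and 12.32, 12.17 and 11.66 in DKO. DKO lay above Gadd45a-KO, and WT replicate 2 lay above DKO replicate 3. Pex19 rose by 0.93 ± 0.21 in DKO against Gadd45a-KO (limma adjusted p = 0.0206). Pex16, which helps to recruit Pex3, lay between 12.07 and 13.35, with WT replicate 2 the highest of all arrays, and had 0.65 ± 0.25 (limma adjusted p = 0.0942).

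Among cargo receptors and docking proteins the median in DKO against Gadd45a-KO was 0.55 over 4 genes. Of these 4 genes 2 rose, against 6.49% of all features. Pex7, the receptor for enzymes with an amino-terminal signal such as Phyh and Agps, had 11.24, 10.93 and 11.04 in WT, 11.19, 11.21 and 10.84 in Gadd45a-KO, 11.48, 11.24 and 11.35 in Ing1-KO, and 11.85, 11.64 and 11.49 in DKO. The DKO arrays were the highest 3 of the 12. Pex7 rose by 0.58 ± 0.14 in DKO against Gadd45a-KO (limma adjusted p = 0.0233). Pex13, part of the docking complex, had 12.72, 12.98 and 12.58 in WT, 12.74, 12.73 and 12.53 in Gadd45a-KO, 13.39, 13.09 and 13.05 in Ing1-KO, and 13.47, 13.41 and 13.14 in DKO. All 6 arrays lacking Ing1 lay above the 6 others. Pex13 rose by 0.67 ± 0.14 in DKO against Gadd45a-KO (limma adjusted p = 0.0173) and by 0.55 ± 0.10 on average (adjusted p = 0.00899); its second probe gave 0.97 ± 0.20 and 0.63 ± 0.14. Pex5, the main cargo receptor, lay between 10.86 and 11.83 and had 0.52 ± 0.23 in DKO against Gadd45a-KO (limma adjusted p = 0.137). Pex14, its docking partner, lay between 9.58 and 10.61 and had 0.47 ± 0.22 (limma adjusted p = 0.157). For both of these genes WT replicate 2 was the highest of the 12 arrays.

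The receptor recycling machinery had smaller values, with a median of 0.38 over 4 genes in DKO against Gadd45a-KO. Pex6, the ATPase, had 11.78, 11.85 and 11.86 in WT, 11.97, 11.86 and 11.54 in Gadd45a-KO, 12.24, 12.23 and 12.26 in Ing1-KO, and 12.34, 12.40 and 12.23 in DKO. Its WT and Ing1-KO arrays were each nearly equal within the group, and all 6 arrays lacking Ing1 lay above the 6 others. Pex6 rose by 0.53 ± 0.11 in DKO against Gadd45a-KO (limma adjusted p = 0.0175) and by 0.47 ± 0.08 on average (adjusted p = 0.00721). A second Pex6 probe did not show this: it had -0.06 ± 0.10 in DKO against Gadd45a-KO and -0.01 ± 0.07 on average, so the Pex6 result rests on 1 of its probes. Pex2, a RING finger ubiquitin ligase, had 11.48, 11.61 and 11.21 in WT, 11.32, 11.42 and 11.33 in Gadd45a-KO, 11.66, 11.54 and 11.56 in Ing1-KO, and 11.91, 11.92 and 11.64 in DKO. DKO lay above WT and Gadd45a-KO. Pex2 rose by 0.46 ± 0.12 in DKO against Gadd45a-KO (limma adjusted p = 0.0291). Pex10, another ligase of the same complex, had 8.34, 8.63 and 8.44 in WT, 8.57, 8.59 and 8.19 in Gadd45a-KO, 8.67, 8.78 and 9.00 in Ing1-KO, and 8.68, 8.76 and 8.78 in DKO. Its arrays lacking Ing1 lay above all others, but the average effect of 0.32 ± 0.10 did not pass (limma adjusted p = 0.0553). Pex26, the anchor of the ATPase, lay between 10.44 and 10.93 and had 0.14 in DKO against Gadd45a-KO, with a 95% interval from -0.12 to 0.39.

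Division of the organelle is represented by Pex11a, which elongates the membrane and is strongly induced by peroxisome proliferators. Pex11a had 13.03, 13.75 and 12.89 in WT, 13.19, 12.84 and 12.93 in Gadd45a-KO, 13.59, 13.29 and 13.51 in Ing1-KO, and 14.06, 14.01 and 13.46 in DKO. DKO lay above Gadd45a-KO, and WT replicate 2 lay within the DKO range. Pex11a rose by 0.85 ± 0.22 in DKO against Gadd45a-KO (limma adjusted p = 0.0297) and by 0.55 ± 0.16 on average (adjusted p = 0.0368).

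Most further peroxisomal genes outside the 32 went the same way. Of 50 such genes, 43 were tested. In DKO against Gadd45a-KO 25 rose and 0 fell, against 6.49% of all features that rose and 8.47% that fell. The median log2 fold change of the 43 was 0.56 (39 positive, 4 negative, the lowest -0.91). The genes with the smallest p were Acot4, a thioesterase, at 1.5 ± 0.18, Acad11, an acyl-CoA dehydrogenase, at 1.01 ± 0.16, Ech1, a dienoyl-CoA isomerase, at 1.12 ± 0.19, and Hacl1, the lyase of alpha oxidation, at 0.86 ± 0.15 (limma adjusted p between 0.00474 and 0.0114). Acot4 had the clearest separation. Its log2 signal was 6.97, 7.14 and 6.87 in WT, 6.68, 6.79 and 6.76 in Gadd45a-KO, 8.32, 7.86 and 8.45 in Ing1-KO, and 8.43, 7.96 and 8.34 in DKO. It was also the 1 gene of this list that rose in DKO against WT, by 1.25 ± 0.18 (limma adjusted p = 0.0356), against 0.0827% of all features. Averaged over both backgrounds, 27 of the 43 rose with Ing1 loss and 0 fell, against 6.93% of all features that rose. Of the 43, 5 were negative there, the lowest at -1.08.

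Mitochondrial fatty acid oxidation and the receptors that switch on both organelles lay higher too. Over all features, 6.49% rose and 8.47% fell in DKO against Gadd45a-KO. Of 18 mitochondrial genes, 16 rose and 1 fell in DKO against Gadd45a-KO, with a median of 0.97, among them the dehydrogenase Acadl at 1.13 ± 0.14 and the carnitine carrier Slc25a20 at 1.25 ± 0.23 (limma adjusted p = 0.00532 and 0.0122); the gene that fell was Cpt1a, named after its value was seen. Of 8 PPAR and partner genes, 5 rose and 0 fell, with a median of 0.75 (6 positive, 2 negative). Among them were Ppara, the fatty acid receptor, at 1.22 ± 0.28 and the coactivator Ppargc1a at 1.17 ± 0.26 (limma adjusted p = 0.0213 and 0.0187). Ppargc1a is also counted among the brown and beige adipocyte genes below, so these lists overlap. Against WT, 1 mitochondrial gene and 0 of the PPAR list rose in DKO, against 0.0827% of all features.

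Markers of the cells in the fat pad moved with these genes. In DKO against Gadd45a-KO, 7 of 12 white adipocyte markers rose and 0 fell, against 6.49% of all features that rose and 8.47% that fell. The median of the 12 was 0.76, and leptin, Lep, had 1.34 ± 0.24 (limma adjusted p = 0.0115). On each array the mean deviation of the 32 peroxisomal genes lay on the same side of 0 as that of the adipocyte markers. The first minus the second ran from -0.17 on WT replicate 2 to 0.16 on Gadd45a-KO replicate 2. Its mean ± SD over 3 arrays was -0.05 ± 0.11 for WT and 0.10 ± 0.07 for Gadd45a-KO. It was 0.00 ± 0.02 for Ing1-KO and -0.06 ± 0.12 for DKO. The summed level of the adipocyte list, as the mean deviation from the 12 arrays, ranged from -0.32 to 0.26 in WT, from -0.51 to -0.17 in Gadd45a-KO, from 0.01 to 0.19 in Ing1-KO and from 0.04 to 0.59 in DKO. Among the 10 genes typical of brown and beige adipocytes, 5 passed as higher and 0 as lower, with a median of 1.20. The uncoupling protein gene Ucp1 had 2.59 ± 0.78 (limma adjusted p = 0.0445), and its list ranged from -1.46 to 0.10 in Gadd45a-KO and from 0.67 to 1.32 in DKO.

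Markers of immune and dividing cells went down in the same comparison, in which 8.47% of all features fell. Of 12 T cell markers, 10 fell, with a median of -1.0 and a range from 0.28 to 0.68 in Gadd45a-KO and from -1.27 to -0.03 in DKO. Of 8 neutrophil markers tested, 6 fell, with a median of -3.52. The neutrophil list ranged from 0.79 to 3.16 in Gadd45a-KO, from -1.42 to -0.76 in DKO and from -1.17 to 0.42 in WT. Its median against WT was 2.84 in Gadd45a-KO and -0.59 in DKO, so Gadd45a-KO was the group further from WT. In Gadd45a-KO against WT, however, 0 neutrophil markers passed (0% of all features passed). The Gadd45a-KO arrays were also unequal, at 3.16, 2.14 and 0.79. Of 10 macrophage markers, 4 fell, among them Cx3cr1 by 1.37 on the log2 scale. The macrophage median against WT was 0.38 in Gadd45a-KO and -0.42 in DKO. Of 8 B cell markers 3 fell, and of 7 proliferation markers 5 fell. The B cell list ranged from 0.24 to 0.37 in Gadd45a-KO and from -1.13 to 0.09 in DKO. For the proliferation list the ranges were 0.28 to 0.46 and -1.05 to 0.00. DKO replicate 2 was the lowest array for both lists. In whole tissue, fewer cells of a type and less RNA per cell cannot be told apart. The part of these cell type shifts in the peroxisomal result was not tested.

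**Figure D4:**
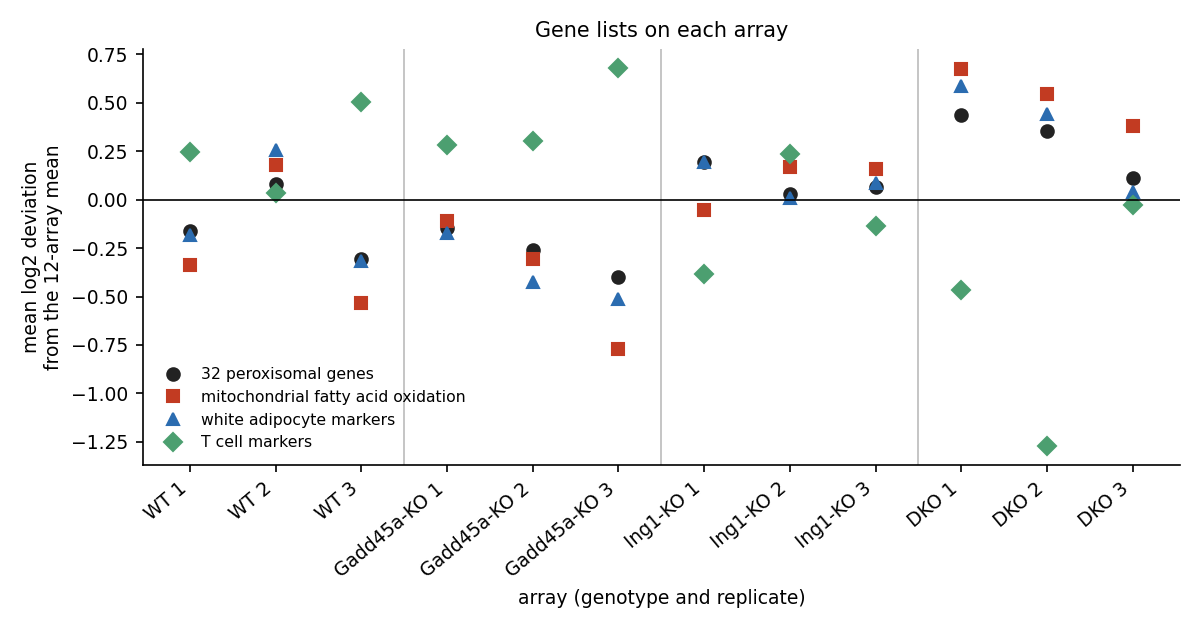
Mean log2 deviation from the 12-array mean for the 32 peroxisomal genes, the mitochondrial fatty acid oxidation genes, the white adipocyte markers and the T cell markers on each array, by genotype and replicate. The peroxisomal and adipocyte points lie on the same side of 0 on every array, and the T cell points lie on the other side of 0 on all Gadd45a-KO and all DKO arrays.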

How the data were processed

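The deposited scanner files hold intensity values: per the file headers, Feature Extraction 10.7.3.1 wrote, for each spot, a processed Cy3 signal that is background-subtracted within the array and not normalized between arrays. The authors also deposited a table of log2 values for 38927 probes, made with limma 3.26.9 per the submitters' processing notes; its column medians lie close together, its normalization and probe filter are not given in the sources used here, and it served as an alternative. Here the processed signals were averaged over the unmarked spots of each probe, put on a log2 scale and shifted to a common 75th percentile. Probes were named through their RefSeq accession: of 29107 such probes, 27469 matched. A probe was tested if 3 or more of the 12 arrays had it well above background, each gene was represented by its brightest probe, and limma 3.58.1 in R 4.3.3 (4 genotype means over all 12 arrays, moderated with trend and robust settings) gave two-sided p-values, adjusted by Benjamini-Hochberg over all 31453 features with a threshold of 0.05. Scores of lists are means of each gene's deviation from its 12-array mean.

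The 32 members and the other lists were chosen with earlier results of these data known. All 12 values are given for members with an unadjusted p under 0.01 in any comparison, and of other lists up to 4 genes with the smallest p. Tested on simulated data for 31453 genes, the fit recovered 74% of 2-fold and 92% of 4-fold changes for the average effect of Ing1 loss. It recovered 37% and 84% for DKO against WT, with 8 and 9 false calls in the 2 comparisons. The simulated noise was independent between genes and arrays, so differences that many genes share on an array were not covered. Changes under 2-fold, the size of most members here, were not simulated. Alternatives were quantile normalization, median centring, normexp background correction (on the median spot signal), the dim probe filter, the deposited table, the arrays compared alone, the replicate block and leaving out each array. The array column and the muscle-rich arrays were chosen as alternatives after seeing the data. Per the file headers, replicates of 1 number share a slide and a scan, so the number pairs arrays by slide. Deviations of same-numbered arrays correlated with r from -0.28 to 0.42 over 18 pairs, with a median of 0.12 and 9 over 0.1. The 36 pairs with different numbers, from different genotypes, had a median r of -0.10, with 8 over 0.1. The main fit did not include the slide.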

Additional observations from a re-analysis of the deposited data

How the results depend on the processing

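The median of the 32 genes kept its sign in DKO against Gadd45a-KO, DKO against WT and the average effect of Ing1 loss under all alternatives run, and moved by less than the spread between replicates. Calls moved more, and the causes were not tested. When the 3 arrays with high skeletal muscle transcripts were left out, the members called were 0 in DKO against Gadd45a-KO and 0 for the average effect of Ing1 loss; over all features the calls were 1 in each of these and in DKO against WT, and 0 in DKO against Ing1-KO and for the average effect of Gadd45a loss. With only the arrays compared, DKO against Gadd45a-KO gave 3 members and 502 features in place of 4704, DKO against WT 1 feature in place of 51, and DKO against Ing1-KO 0 in place of 1. The replicate block gave 7 members and 653 features in DKO against WT, and changed no other count of members by over 1.5 times. With the array column as a block DKO against WT had 3 features called, and with the replicate block and the column together 2, where DKO against Ing1-KO and the average effect of Gadd45a loss had 0. Without the dim probe filter DKO against Gadd45a-KO had 3062 features and DKO against WT 25; normexp gave 202 in DKO against WT. In Ing1-KO against WT the 1 feature called became 5 with quantile normalization, 4 with median centring, 2 with normexp and 2 with the authors' values. Leaving out 1 array at a time gave 0 to 1 features in Gadd45a-KO against WT, 1 to 16 in Ing1-KO against WT, 1 to 3307 in DKO against WT (0 to 15 members), 539 to 7065 in DKO against Gadd45a-KO (2 to 25 members), 0 to 3 in DKO against Ing1-KO, 1901 to 7087 for the average effect of Ing1 loss (10 to 27 members, in place of 20) and 1 to 2 for the average effect of Gadd45a loss. Median centring moved the share of calls that were higher from 43.4% to 59.0% in DKO against Gadd45a-KO, from 43.3% to 63.7% for the average effect of Ing1 loss and from 51.0% to 71.4% in DKO against WT, while the members called there were 21, 22 and 0. No depth applies to arrays; the number of arrays limits the precision, and a 3 against 3 exact permutation test cannot go below p = 0.1.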
